A study of Homo sapiens with 2 samples.

Results

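The insulin-like growth factor (IGF) axis was examined in SAS cells and in eSAS cells through 10 genes, which are the ligands IGF1 and IGF2, the receptors IGF1R and IGF2R, and the binding proteins IGFBP2, IGFBP3, IGFBP4, IGFBP5, IGFBP6 and IGFBP7. They were taken by name from the 30484 gene names on the array, and every probe that carries 1 of these names was kept, which gave 20 probes on 47 spots. SAS is an established line from a human tongue squamous cell carcinoma. eSAS is the population obtained from it after 5 rounds in which large spheroids were collected on a mesh, dissociated and grown again. Both were kept in serum-containing DMEM, and RNA from each was labelled with Cy3 and hybridised to 1 array, so the comparison asks how repeated selection for large spheroids went with the levels of these transcripts.

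No array was repeated, so no test between the cell populations could be made, and each difference below is a difference between 2 arrays of the same slide. eSAS is a single selected population of a single line, so selection, time in culture and drift of that population cannot be told apart. On a bulk array, fewer cells that express a gene and less of its RNA per cell also cannot be told apart.

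IGF1 and IGF2 are secreted peptides that bind the receptor tyrosine kinase IGF1R, which signals through IRS adaptor proteins to PI3 kinase and AKT. IGF2R has no kinase and carries IGF2 to lysosomes, so it removes ligand from the cell surface. The IGF-binding proteins hold the ligands outside the cell, and proteases that cut them set ligand free.

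By the scanner software, 69.4% of spots for SAS cells and 67.5% for eSAS cells were well above background. The 75th percentiles of the signal were 1242 and 1196, and each ratio below is the log2 ratio of eSAS over SAS after both arrays were set to the same 75th percentile, which moved all ratios by 0.054. Over the 26659 probes well above background on both arrays, the median log2 ratio was -0.0039 and the SD was 0.36, while repeated spots of 1 probe had a typical SD of 0.080. All 9 markers of squamous epithelium were well above background on both arrays, with log2 ratios from -3.90 for KRT14 to 0.040 for EPCAM and a median of -0.48. The KRT14 value was the mean of 2 probes that disagreed in size, at -6.58 and -1.23. The summed signal of the 9 markers was 104861 in SAS cells and 78616 in eSAS cells, with EPCAM as the largest part (40809 and 40413). Here and in the lists below, a sum takes the brightest probe of each gene on each array. Of 8 fibroblast markers, 5 were not well above background on either array, DCN among them. LUM read 3.21 and 29.6 and was at least 2.40-fold higher in eSAS cells, at a spot in row 461. In the other direction, COL1A1 read 15.1 in SAS cells and 4.90 in eSAS cells. It was well above background on the SAS array only, too near the limit for a fold. The summed signal of the 8 was 2727 and 2623, nearly all of it from THY1 (2667 and 2556). The leukocyte marker PTPRC was also not well above background, while the leukocyte marker CD14 was, on both arrays (215 and 233). The summed signals of the leukocyte list were 233 and 253, mostly from CD14. Those of the endothelial list were 114 and 99.3, mostly from VWF (85.9 and 77.0), which was also measured on both arrays. The part of these marker differences in the results below was not tested. A group of rows on the slide, 450 to 510, held 196 of the 267 spots that the software marked as uneven or outlying on the SAS array, so the row is given with the single-spot probes that the results turn on.

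The promoters of IGFBP3 and IGFBP2 are shown because these genes had the lowest log2 ratios of the axis. Each line gives the 250 bases before a RefSeq transcription start of GRCh38.p14, written 5′ to 3′ on the strand of the gene, with capitals for the GC box letters GGGCGG or their reverse complement CCGCCC. The IGFBP3 window is chr7:45921273-45921522 on the minus strand, and the IGFBP2 window, before the most upstream of 3 listed starts, is chr2:216632578-216632827 on the plus strand.
IGFBP3: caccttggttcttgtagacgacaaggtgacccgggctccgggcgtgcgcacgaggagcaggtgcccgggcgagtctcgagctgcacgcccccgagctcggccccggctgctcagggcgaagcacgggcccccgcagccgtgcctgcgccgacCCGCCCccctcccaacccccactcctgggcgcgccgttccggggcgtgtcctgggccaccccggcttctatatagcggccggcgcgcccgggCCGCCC
IGFBP2: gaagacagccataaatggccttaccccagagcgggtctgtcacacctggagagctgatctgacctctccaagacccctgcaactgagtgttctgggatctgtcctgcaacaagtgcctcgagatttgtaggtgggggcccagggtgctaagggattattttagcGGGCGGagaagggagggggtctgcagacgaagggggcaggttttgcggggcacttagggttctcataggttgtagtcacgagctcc
The IGFBP3 window held 76.0% G and C, a share that 8.69% of all windows reached, and 2 GC boxes. The IGFBP2 window held 56.8% G and C, close to the median of 58.0% over 35116 windows of the same length, and 1 GC box. On either strand, 42.6% of all windows held GGGCGG, so a GC box was common. Neither window held the TATA letters TATAAA, found in 10.7% of windows, or the hypoxia core letters ACGTG, found in 18.5%. Only these exact letters were searched, so variants such as the tatata and gcgtg in the IGFBP3 line were not counted.

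Promoter entries were matched for 8 of the 10 genes, in 11 windows. Before the further IGFBP2 starts, the windows held 69.2% G and C with 1 GC box, and 56.4% with no GC box. The value of 69.2% was reached by 22.5% of all windows, so the G and C share of IGFBP2 depends on the start chosen. The IGF2R window held 6 GC boxes and 6 matches of ACGTG, which may overlap, with 79.2% G and C. The IGF1R window had 81.2% G and C, 2 GC boxes and 1 match of ACGTG, and the IGFBP4 window had 1 GC box and 1 TATAAA. IGFBP6 had 1 GC box, and the IGFBP5 window and both IGF1 windows had none of the 3 motifs. IGF2 and IGFBP7 were not looked up elsewhere. A match of letters is a description of the window, and nothing on the binding of a factor was measured here.

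The axis fell into genes with clear signals and genes near the limit of the array. Of the 20 probes, 11 were well above background on both arrays, 9 on neither and 0 on only 1 array. The 11 probes covered 8 genes, and IGF1 and IGFBP5 had no probe well above background. Signals of different probes depend on the probe as well as on the transcript, so no gene's level was set against another's. A probe counted as well above background from a signal of 12.8 in SAS cells and 15.2 in eSAS cells, at the lowest, and no spot of the axis was saturated.

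**Figure D1:**
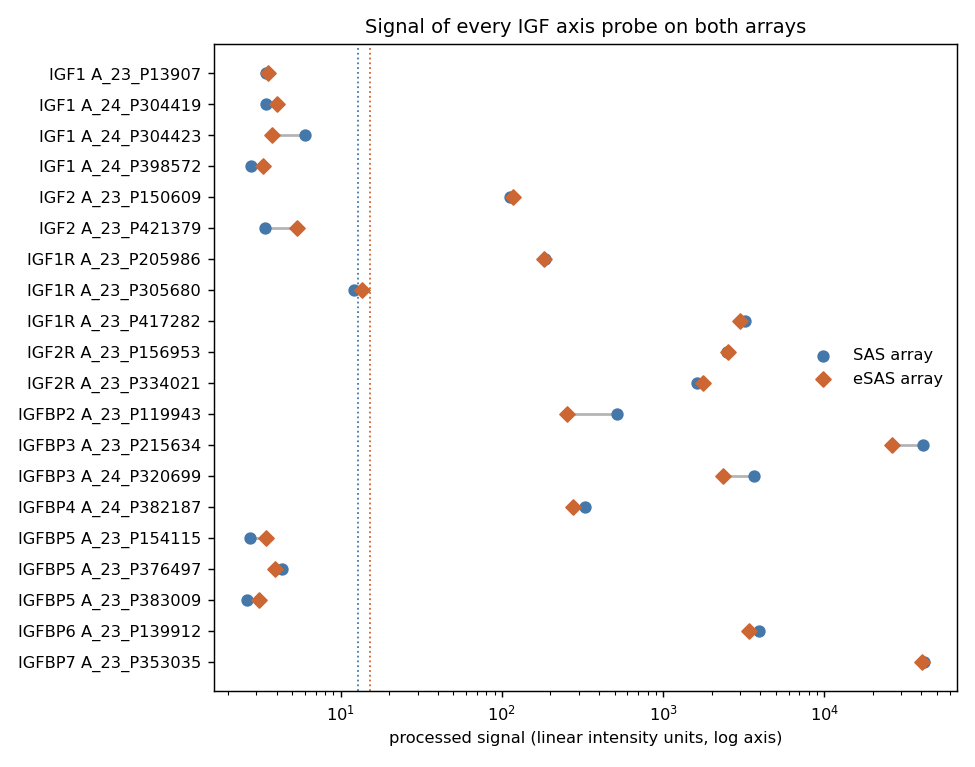
Processed signal (linear intensity units on a log axis) of each of the 20 IGF axis probes on the SAS array (circles) and the eSAS array (diamonds), with dotted lines at the lowest probe signal well above background on each array, 12.8 and 15.2. The 9 probes of low signal lie on the left, and the longest lines between circles and diamonds among the brighter probes belong to IGFBP2 and IGFBP3.

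No probe of the axis was at least 2-fold higher and none was at least 2-fold lower in eSAS cells, against 1.83% and 1.97% of 28439 probes well above background on at least 1 array. IGFBP2 lay closest to this limit, and without the scaling between arrays it passed it, with a log2 ratio of -1.03. Of the 11 probes measured on both arrays, 6 had a log2 ratio below 0 and 5 above 0, with a median of -0.036, and 50.8% of all measured probes were below 0. A ratio within 1.2-fold was found for 8 of the 11, against 72.8% of all measured probes. At a limit of 1.5-fold lower, 1 of the 11 passed, the IGFBP2 probe, against 4.89% of all measured probes, while both IGFBP3 probes lay just short of it. No probe of the axis was 1.5-fold higher, against 3.09%. Only these 3 probes of the 11 had a log2 ratio larger than the error that the software's own signal errors give, which was 0.20 to 0.21.

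**Figure D2:**
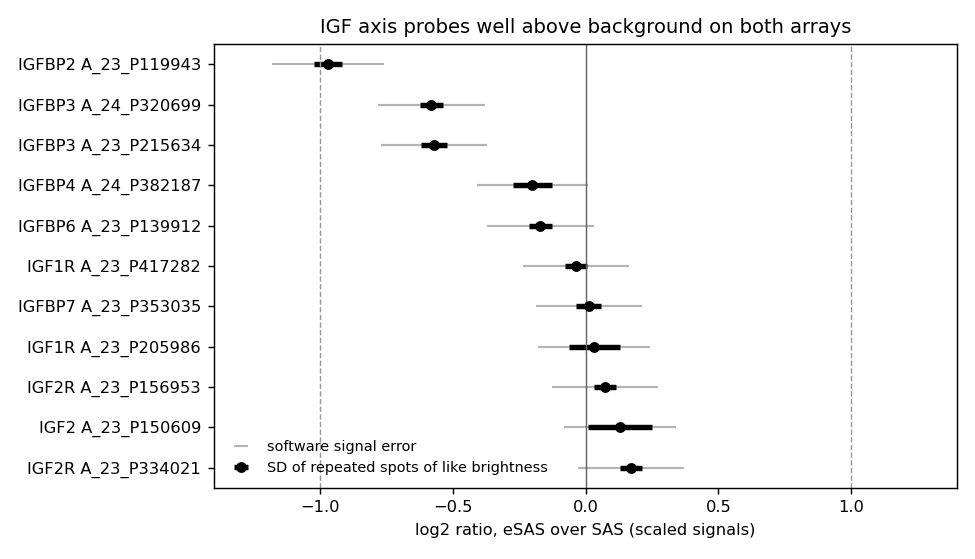
Log2 ratio of eSAS over SAS for the 11 IGF axis probes well above background on both arrays, with thick bars for the SD of repeated spots of like brightness and thin bars for the software's signal error. The IGFBP2 probe (-0.97) and both IGFBP3 probes (-0.58 and -0.57) lie to the left of 0 by more than either bar, and dashed lines mark 2-fold.

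The ligand genes gave little signal. IGF1 (chromosome 12, minus strand, positions here and below in hg18) had 4 probes, none well above background on either array. The 10 spots of its probe at chr12:101320396-101320455 read 2.58 to 6.29 in SAS cells and 3.25 to 4.05 in eSAS cells, and these ranges overlapped. Its other 3 probes read 3.46 and 4.03, 6.00 and 3.74, and 2.78 and 3.29 in SAS and eSAS cells, all under the lowest signals well above background. No fold is given for IGF1, and a difference between the cells was not detectable at this signal.

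IGF2 had a usable signal at 1 of 2 probes. The probe at chr11:2106970-2107029 read 112 in SAS cells and 117 in eSAS cells, a log2 ratio of 0.13 or 1.09-fold higher. Repeated spots of like brightness had an SD of 0.12 over 27 probes and the software error was 0.21, so the difference was about as large as the first and smaller than the second. The other IGF2 probe, with a placement from 2110978 to 2111330, read 3.38 and 5.36 and was not well above background on either array. The array lists the 2 probes under different IGF2 transcripts, and which transcripts hold each probe was not assigned.

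The receptors were nearly level between the populations. Their 4 measured probes had log2 ratios from -0.036 to 0.17, with a median of 0.052. IGF1R, the kinase receptor for both ligands, had 10 spots of 1 probe at chr15:97318690-97318749, which read 167 to 198 in SAS cells and 170 to 200 in eSAS cells. These ranges overlapped almost wholly, and the log2 ratio was 0.032 with an SD of 0.072 over spots, from -0.12 to 0.13, below 0 at 3 spots and above 0 at 7. A brighter IGF1R probe, 6.14 kb further along, read 3211 and 3015, a log2 ratio of -0.036, within the SD of 0.043 for its brightness. A further IGF1R probe, 57.6 kb before the 10-spot probe, read 12.1 and 13.6 and was not well above background on either array.

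IGF2R, the receptor that clears IGF2, was measured by 2 probes on chromosome 6. The probe at chr6:160446186-160446245 read 2494 in SAS cells and 2524 in eSAS cells, a log2 ratio of 0.072. The probe at chr6:160447104-160447163 read 1621 and 1754, a log2 ratio of 0.17 or 1.12-fold higher, the highest of the axis. Both ratios exceeded the spot SD of their brightness, 0.041 and 0.042, and neither exceeded the software error of 0.20. Ratios as high or higher were found at 34.8% and 20.1% of all measured probes, so neither stood out on these arrays.

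The binding proteins held the larger differences. Of 6 measured probes in 5 genes, 5 had a log2 ratio below 0, against 50.8% of all measured probes, and the median was -0.38. IGFBP3 enters this median with 2 probes, and by gene the middle value was -0.20, that of IGFBP4. Only the IGFBP2 and IGFBP3 probes exceeded the software error. The order from the lowest ratio was IGFBP2, IGFBP3, IGFBP4, IGFBP6 and IGFBP7, and IGFBP4 and IGFBP6 did not differ from each other beyond their errors.

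**Figure D3:**
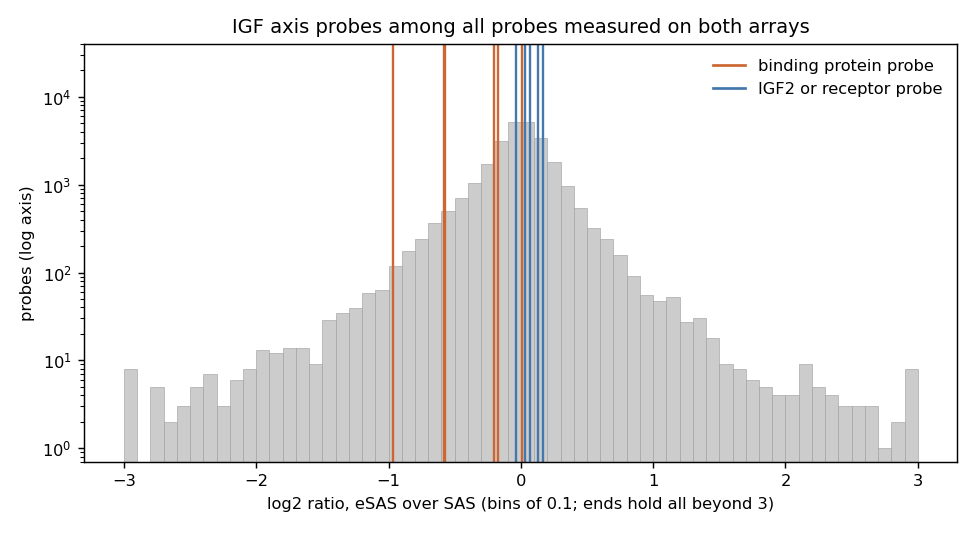
Number of probes (log axis) by log2 ratio of eSAS over SAS, in bins of 0.1, for the 26659 probes well above background on both arrays, with vertical lines for the IGF axis probes. The IGF2 and receptor probes (blue) lie within the central peak, and 3 of the 6 binding protein probes (orange) lie on its lower flank.

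IGFBP2, a binding protein with a preference for IGF2, had the lowest ratio of the axis. Its 1 probe, at chr2:217237331-217237390, read 520 in SAS cells and 255 in eSAS cells. The log2 ratio was -0.97, which is 1.97-fold lower in eSAS cells, and 1.39% of all measured probes were as low or lower. It exceeded the SD of 0.053 that repeated spots of like brightness had over 34 probes, and the software error of 0.21. The spot lay in row 502, in the rows with many marked spots, but was itself marked on neither array, and its adjacent spots had a median log2 ratio of 0.047. IGFBP2 rests on this 1 spot per array, and its ratio became 0.59 when normexp was fitted on all spots, which raised the median of all probes to 0.53, and -0.81 when the marked backgrounds were left out of that fit.

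IGFBP3, the main carrier of IGFs in blood, was lower in eSAS cells at both of its probes. The probe at chr7:45919133-45919192 had 10 spots, and the 9 that were unmarked on the SAS array read 39078 to 42167 in SAS cells. The same 9 spots read 25835 to 27662 in eSAS cells, so the spots of the arrays did not overlap. The mean log2 ratio was -0.57 with an SD of 0.024 over spots, from -0.61 to -0.54, which is 1.48-fold lower. It was below 0 at 9 of 9 spots, which are repeats on 1 pair of arrays and not biological replicates.

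The remaining spot of this probe, in row 467, was marked as uneven on the SAS array. It read 18518 in SAS cells and 24675 in eSAS cells, and the coefficient of variation of its pixels was 0.878 and 0.120 in turn. It was the only spot of the probe higher in eSAS cells, with a log2 ratio of 0.47, and the mean with it kept was -0.47. Outside rows 450 to 510, the 7 spots gave -0.56.

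**Figure D4:**
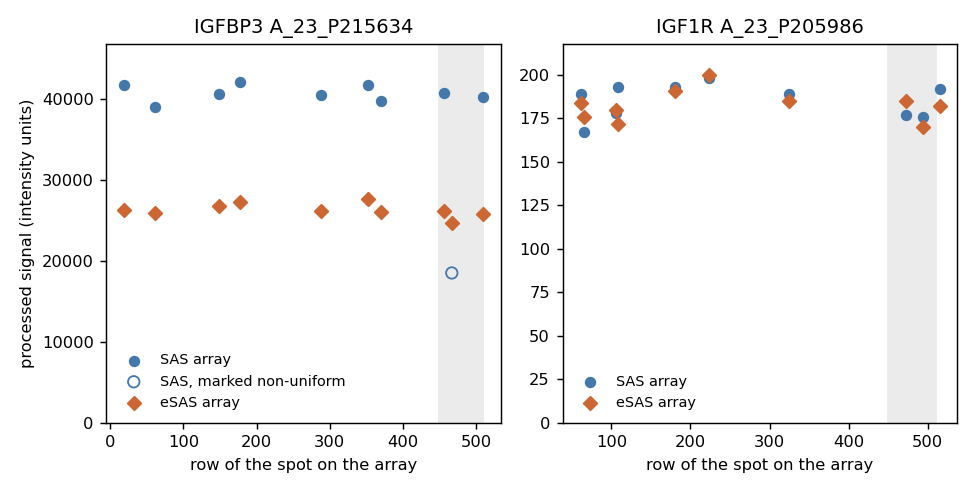
Processed signal (linear intensity units) of each spot of the IGFBP3 and IGF1R probes that have 10 spots, against the row of the spot, on the SAS array (circles) and the eSAS array (diamonds), with grey shading for rows 450 to 510. The IGFBP3 spots of the arrays are separate except at the open circle, a marked SAS spot of 18518, and the IGF1R spots overlap.

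The second IGFBP3 probe gave a difference of similar size at another place in the gene. Its placement from 45922739 to 45923343 on chromosome 7 is longer than a probe of 60 bases, and it read 3635 in SAS cells and 2345 in eSAS cells from 1 spot per array, in row 467. The log2 ratio was -0.58, which is 1.49-fold lower, against a spot SD of 0.042 and a software error of 0.20. Ratios as low or lower were found at 5.01% of measured probes, and at 5.13% for the 10-spot probe. This row lies within rows 450 to 510, the spot was marked on neither array, and its adjacent spots had a median of -0.013, so of the IGFBP3 values only the 7 spots of the first probe lie outside those rows.

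A probe for the expressed sequence tag BE710618 lay between the IGFBP3 probes, 0.727 kb from the first and on the plus strand, while IGFBP3 lies on the minus strand. It read 316 in SAS cells and 169 in eSAS cells, a log2 ratio of -0.85 or 1.80-fold lower, in row 51 with adjacent spots at 0.031. It was picked after its value was seen, as the lowest of the 14 other measured probes within 1 Mb of IGFBP3, which had a median of -0.056 and reached 0.21 at the highest. The 14 also included IGFBP1 at -0.63 and a probe of ADCY1, 190 kb away, at -0.56. Around IGFBP2, 11 other measured probes had a median of 0.12, from -0.49 for MARCHF4 to 0.45, and none in either region was 2-fold apart.

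IGFBP4, an inhibitory binding protein that the protease PAPPA cuts, read 329 in SAS cells and 277 in eSAS cells at chr17:35866834-35866893. The log2 ratio of -0.20, 1.15-fold lower, exceeded the spot SD of 0.073 and lay at the software error of 0.21. IGFBP6, which prefers IGF2, read 3948 and 3386 at chr12:51781120-51781179. Its log2 ratio was -0.17, 1.12-fold lower, beyond the spot SD of 0.042 but within the software error of 0.20, and its adjacent spots had the same median, -0.17. As many as 19.8% of measured probes were as low as IGFBP4 and 22.7% as low as IGFBP6.

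IGFBP7, a secreted protein that binds IGFs with low affinity, read 41270 in SAS cells and 40082 in eSAS cells at chr4:57592180-57592239. Its log2 ratio was 0.012, within the spot SD of 0.048. IGFBP5, a binding protein that attaches to the matrix, had 3 probes on chromosome 2, which read 2.75 and 3.42, 4.32 and 3.90, and 2.64 and 3.13 in SAS and eSAS cells. None was well above background on either array, although the nearest of them lay 8.02 kb from the IGFBP2 probe, so the neighbouring genes differed in whether they were detected.

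Other genes of the pathway were described by list. Over all genes with a probe well above background, 2.04% were 2-fold or more higher and 2.15% were lower by as much, with a median log2 ratio of -0.0071. The receptor list gave 1 value of 3 genes. INSR, the insulin receptor, read 125 and 131, a log2 ratio of 0.11, while INS (3.41 and 4.86) and INSRR (2.65 and 8.57) were not well above background on either array.

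Among 11 further binding proteins and proteases, 7 had a value, 2 were lower by 2-fold or more and 0 were higher by as much. The list median was -0.37, which is the bound of STC1, and it was -0.29 over genes measured on both arrays, -0.077 without background correction and 0.061 with all probes of a gene. HTRA1, a secreted serine protease that can cut IGF-binding proteins, read 10935 in SAS cells and 3770 in eSAS cells at chr10:124264328-124264387. Its log2 ratio was -1.48, 2.79-fold lower, with 0.435% of measured probes as low, in row 73 with adjacent spots at -0.099. PAPPA, the protease that cuts IGFBP4, was 2.14-fold lower as the mean of 2 probes. The probe measured on both arrays read 58.4 and 35.1, 1.60-fold lower, and the other, which read 45.2 and 3.47, was at least 2.86-fold lower, since its eSAS signal was not well above background. With only probes measured on both arrays, PAPPA was not 2-fold lower.

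IGFBP1, which shares a neighbourhood of chromosome 7 with IGFBP3, had its probe 19.6 kb away. It read 567 in SAS cells and 352 in eSAS cells, a log2 ratio of -0.63 or 1.55-fold lower, in row 492 with adjacent spots at 0.058. STC1, an inhibitor of PAPPA, read 20.3 and 8.10 and was at least 1.29-fold lower. The related inhibitor STC2 had a mean log2 ratio of 0.11 over probes that disagreed, at -0.24 and 0.47, and ADAM12, another protease of binding proteins, had 0.061 from probes at -0.26 (row 459) and 0.38. CTSD, a lysosomal protease, had the highest ratio, 0.16, with 1043 and 1123. IGFALS, the partner of IGFBP3 in the circulating complex, read 16.3 and 8.18, and IGFBPL1, PAPPA2 and ADAM28 were likewise not well above background on either array.

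Of 15 adaptors and kinases below the receptors, 14 had a value, none was 2-fold apart, and the median log2 ratio was 0.0099. The highest was GRB14, an adaptor that inhibits the insulin receptor, at 567 and 829, a log2 ratio of 0.60 or 1.52-fold higher. The related adaptor GRB10 was higher at both of its probes, with log2 ratios of 0.30 and 0.43. PIK3R1, a regulatory subunit of PI3 kinase, had a mean of -0.49 over a measured probe, which read 263 and 189 with a log2 ratio of -0.42, and a probe that gives only a bound. Over probes measured on both arrays the lowest gene was the docking protein IRS1, which read 1216 and 843, a log2 ratio of -0.47 or 1.39-fold lower, and IRS2 had 3 probes from -0.62 to -0.12. The kinase genes AKT1 and AKT2 lay at -0.10 and 0.061, the transcription factor gene FOXO1 at -0.032 and FOXO3 at 0.19, and IRS4 was not well above background on either array.

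The IGF2 mRNA partners all lay within 1.2-fold. H19, the noncoding RNA made beside IGF2, read 162090 in SAS cells and 138558 in eSAS cells, a log2 ratio of -0.17. The IGF2 mRNA-binding protein genes had log2 ratios of -0.093 for IGF2BP1, 0.18 for IGF2BP2 and 0.0046 for IGF2BP3 (row 464). The list median was -0.044, and none of the 4 genes was 2-fold apart.

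**Figure D5:**
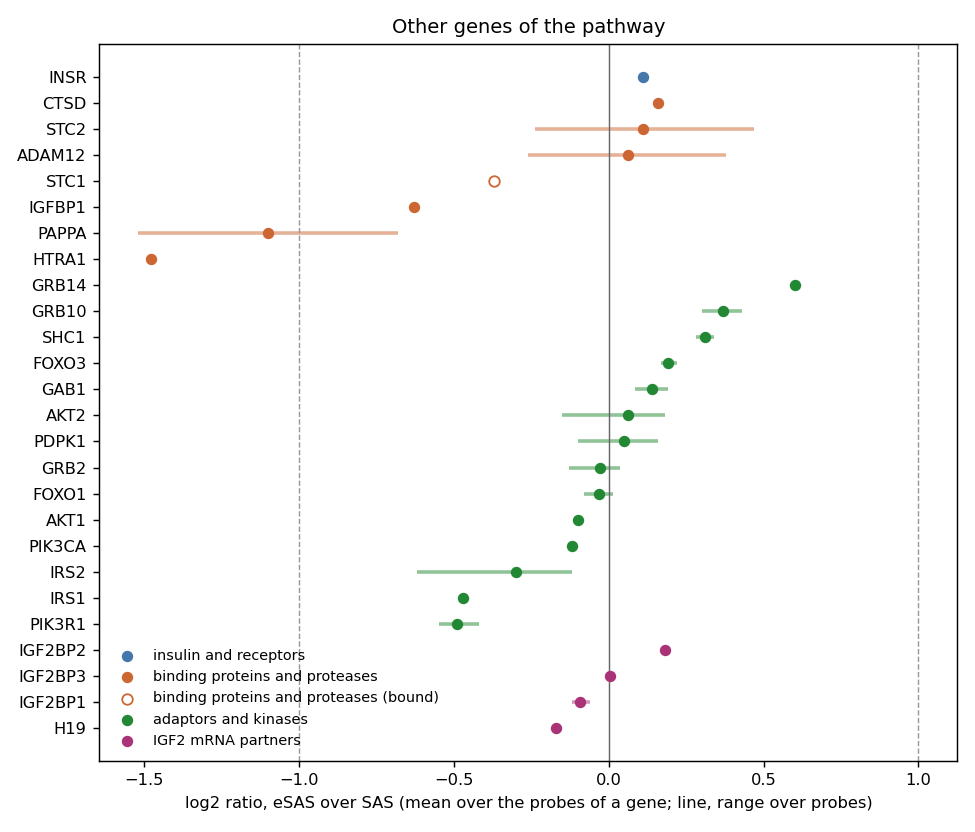
Log2 ratio of eSAS over SAS for the other genes of the pathway that had a value, as the mean over the probes of a gene (points) and the range over its probes (lines), with an open circle for STC1, whose value is a bound. PAPPA and PIK3R1 each include a probe that gives a bound, and HTRA1 (-1.48) and PAPPA (-1.10) lie beyond the dashed line of 2-fold lower.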

How the data were processed

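Total RNA of SAS and eSAS cells was labelled with Cy3 and hybridised to 1 Agilent array each. The authors deposited scanner output of Agilent Feature Extraction 10.7.3.1 (per the labels), from which the processed signal, a background-corrected intensity on a linear scale, was used. The deposited series table held the same values. Control spots were left out, log2 signals were set to each array's 75th percentile, unmarked spots of a probe were averaged, and eSAS was set against SAS. A probe well above background (over 50% of its spots) on 1 array was given as a bound, against the lowest signal well above background. Where that bound would turn the direction, no fold was given. With 1 array per population there was no test; at least 2-fold stood in for a call. Errors are the SD of 10-spot probes and the software's signal error, both technical, and the number of arrays limits the precision.

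All members and all their probes were named. Of other pathway genes, receptors, binding proteins, each list's extremes and genes 2-fold apart were named by rule, and the others named were picked after their values were seen. Members and lists were chosen with earlier results of these data known. Probe positions are the deposited hg18 positions, and exons and UTRs were not assigned. List genes were named through RefSeq (GRCh38.p14): 23958 probes by accession, 2755 by current symbol, 1032 by older symbol, and 13255 kept the array's name. A gene of the adaptor and kinase list is not reported here and was left out of its counts and median. Python 3.11.15 and, for normexp and quantile normalization, limma 3.58.1 in R 4.3.3 were used, and the calculation was tested on simulated data. Alternatives were other scalings, background corrections, pixel summaries and treatments of dim or marked spots.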

Additional observations from a re-analysis of the deposited data

How the results depend on the processing

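No paired analysis was possible because each cell population has 1 array, and no fit with the slide as a block was run since 1 slide holds both. Of 108 alternative values of single probes, 17 moved by more than the spot SD. IGFBP2 ranged from -1.03 to -0.81 outside normexp on all spots, which gave 0.59. There the all-probe median was 0.53 and the axis median was -0.22. Of the axis probes, 3 were 2-fold higher there, IGF2 (1.95), the 10-spot IGF1R probe (1.56) and IGFBP4 (1.12), and 1 was 2-fold lower. The 10-spot IGFBP3 probe ranged from -0.62 to -0.47 outside that setting, which gave -1.14, and its other probe gave -0.76. Without scaling, 1 axis probe was 2-fold lower. With rows 450 to 510 left out, IGFBP2 and the second IGFBP3 probe had no value, and the axis median was 0.012, against -0.036 in the main setting. The setting with all probes of a gene also takes in probes not well above background on either array, such as those of INS (3.41 and 4.86) and INSRR (2.65 and 8.57). With it, the insulin and receptor median was 0.57 and the binding protein and protease median was 0.061. In that setting 1 pathway gene was 2-fold higher and 3 were 2-fold lower, against 0 and 2 in the main setting. Without background correction, that binding protein median was -0.077 and 1 pathway gene was 2-fold lower, as it was when both arrays had to be well above background. This last setting, leaving out rows 450 to 510 and keeping marked spots in the probe mean were chosen after seeing the data. The cause was not tested. Signals near background limit IGF1, IGFBP5 and 1 probe each of IGF2 and IGF1R to no fold.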
